A study of Mus musculus with 18 samples.

Results

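A pair of mouse embryonic fibroblast (MEF) lines was compared before any doxycycline was given. The repressor line carried an inducible dCas9-repressor, named KM in the sample labels, and the control line carried an inducible dCas9-control. dCas9 is a Cas9 protein that binds DNA without cutting it and can bring a fused protein to a chosen sequence, which in this study was the major satellite repeat (MSR), the tandem repeat beneath mouse pericentromeric heterochromatin. The study held 18 libraries in 6 groups, the third line being an activator line, dCas9-VPR, and each line was read uninduced and induced. The comparison described here took 6 of the 18 libraries, 3 of the uninduced repressor line and 3 of the uninduced control line, both labelled untreated. All lines were grown in the same medium with serum free of tetracycline and with hygromycin. The labels do not say what KM stands for, whether a line was a clone or a pool, or how long each had been cultured. A MEF line without a construct was not analysed here, so the line and its construct cannot be told apart. Of 47937 gene IDs in the table, 16216 passed the count filter and were tested.

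In an inducible system the fusion protein is switched on by doxycycline, and uninduced cells serve as the baseline of each line. Embryonic fibroblasts are connective-tissue cells that secrete collagens and other matrix proteins and respond to growth factors. Cultured cells also run the ATF4 response, in which the transcription factor ATF4, translated when amino acids run short or the endoplasmic reticulum is stressed, turns on genes for amino acid synthesis and import, tRNA charging and feedback control.

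Library totals ran from 14928765 to 22780863 counts in the control line and from 18126838 to 21898462 in the repressor line. Mitochondrially encoded genes took 0.582% to 0.666% of the counts in control libraries and 0.619% to 0.642% in repressor libraries. Levels below are in CPM (counts scaled to library size) after TMM scaling, which sets the libraries to a common composition. Of 10 fibroblast markers, Col1a1, Col1a2, Col3a1, Fn1 and Vim were all above 1000 CPM, and Thy1 and Lum were at or near 0 (at most 1 and 11 counts over 3 libraries). Summed markers of endothelial, epithelial and pluripotent cells reached at most 1.52 CPM in any of the 6 libraries. The immune sum was 5.77 to 8.0 CPM in the control line and 6.07 to 7.77 CPM in the repressor line, with Adgre1 at 0 and Ptprc at 2 counts in all. The muscle sum was 5.73 to 7.54 CPM in the control line and 5.43 to 5.53 CPM in the repressor line, with Myod1 and Myog at 0. The neural sum (33.0 to 34.3 against 34.4 to 36.9 CPM) was almost all Tubb3, with Sox10 at 0, and the adipocyte sum (160.0 to 167.0 against 151.0 to 155.0 CPM) was almost all Lpl. Libraries of a group differed by more than counting noise, with a chi-square per degree of freedom of 1.36 to 2.35, so all 6 were counted as separate. Nothing in the labels places replicates in different cultures. Each p-value therefore reflects library-to-library spread alone, which may be technical.

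Before induction the lines differed in a small share of genes, mostly by small amounts. By edgeR quasi-likelihood tests, adjusted over all tested genes (Benjamini-Hochberg, threshold 0.05), 253 genes differed (1.56% of those tested), 140 higher in the repressor line (0.863%) and 113 lower (0.697%). Of these, 163 differed by less than 1.2-fold, and 15 were at least 2-fold higher and 10 at least 2-fold lower. The median size of a called log2 difference was 0.198, and the median over all tested genes was 0.0. Protein-coding genes made up 239 of the 253. Repressor and control libraries did not overlap in 249 of the 253 called genes, against 18.4% of all tested genes. The calls rest on the same 6 libraries, so called genes would rarely overlap and this share is no separate support. In bulk RNA, fewer cells of a kind and less RNA per cell cannot be told apart. The count depended on which libraries entered: it was 513 when the 6 libraries were fitted alone and 103 without control library 2, 117 without repressor library 3, 146 without control library 1 and 147 without repressor library 2. Scaling to mitochondrially encoded genes left 82 calls, scaling by total counts 164, and DESeq2 called 125. A set of 47 genes was called in every alternative that tested them, 22 higher and 25 lower, and 14 of these lacked a test in at least 1 alternative. Below, every alternative means every one of 17 that gave the gene an adjusted p. The counts of at least 2-fold higher and lower genes were 9 and 5 under a stricter count filter and 1 and 0 by DESeq2. Both settings leave genes at low levels without a test. DESeq2 gave no adjusted p to Dnah6, Uroc1, Gbp7, Cldn18 and Lama2, so its counts do not speak to them. Without control library 2, 6 genes were at least 2-fold lower.

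**Figure D1:**
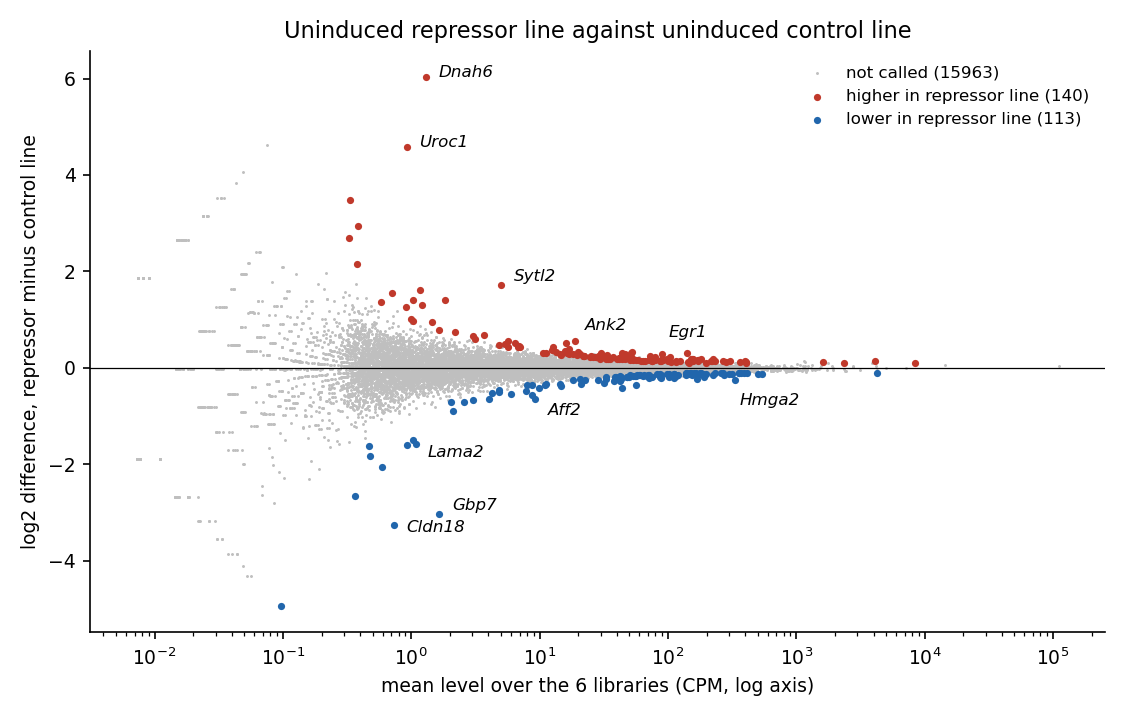
Each point is a tested gene, with its mean level over the 6 libraries (CPM, log axis) across and its log2 difference, repressor minus control line, upwards. The 140 genes called higher are red and the 113 called lower are blue. The called genes with large differences lie at low levels, and those at high levels lie close to 0. The lowest blue point is Svopl, with 11 counts over the control libraries and 0 over the repressor libraries, at least 3.75-fold lower against a floor of 3 counts over the group.

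The largest differences were in genes at low levels, among them Dnah6 and Uroc1, which were close to silent in the control line. Dnah6 encodes an axonemal dynein heavy chain, a motor subunit of cilia and flagella (chromosome 6, 73017606 to 73221651). It stood at 2.55, 2.64 and 2.55 CPM in the repressor libraries and at 0.093, 0 and 0 CPM in the control libraries. That is 158 counts against 2, a ratio of 77.1 with a 95% interval for counting error of 21 to 642. All 3 repressor libraries were therefore above all 3 control libraries, and the fitted log2 difference was 6.03 (SE 0.50, adjusted p = 2.5e-15). Uroc1, which encodes urocanase of histidine breakdown, a liver enzyme (chromosome 6, 90333284 to 90364551), stood at 1.57, 1.75 and 1.96 CPM in the repressor libraries and at 0, 0 and 0.262 CPM in the control libraries. Its 107 counts against 4 gave a ratio of 26.1 (9.9 to 97.5), and the groups did not overlap (log2 difference 4.58, SE 0.48, adjusted p = 3.25e-11).

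Sytl2, a synaptotagmin-like protein that links Rab27 vesicles to membranes, had the smallest p of all genes. Its levels were 7.25, 7.78 and 8.04 CPM in the repressor line and 2.05, 2.30 and 2.76 CPM in the control line, with no overlap (log2 difference 1.72, SE 0.14, adjusted p = 2.18e-15). Myom1, a structural protein of the muscle M band, was at 2.70 ± 0.308 CPM (SD, n = 3) against 0.993 ± 0.215 CPM. Col14a1, a collagen that sits on the surface of collagen fibrils, was at 1.52 ± 0.00135 CPM against 0.543 ± 0.191 CPM. The sphingosine 1-phosphate phosphatase gene Sgpp2 was at 1.79 ± 0.44 CPM against 0.558 ± 0.2 CPM, and all 3 of these genes were called in every alternative that tested them. The other genes of the 12 largest that were higher, Klhl13, Arc, Susd1, Pcdhga6, Mr1 and Serpinb1a, ranged in log2 difference from 0.96 to 1.56, and each lost its call when 1 or more of the libraries was left out. Muscle markers did not move with Myom1: Des and Tnnt2 had log2 differences of -0.34 and -0.15, and neither passed the test.

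Among the genes lower in the repressor line, Gbp7 and Cldn18 had the largest differences of those with at least 1 CPM. Gbp7, an interferon-inducible guanylate-binding protein of cell defence (chromosome 3, 142530342 to 142550149), was at 2.61, 3.61 and 2.69 CPM in the control libraries and at 0.637, 0.313 and 0.109 CPM in the repressor libraries. Every control library was above every repressor library (log2 difference -3.04, SE 0.29, adjusted p = 4e-13). Of 29 tested interferon-stimulated genes it was the only one that passed the test (3.45%, against 1.56% of all tested genes). A log2 difference above 0 was found in 17 of the 29. Cldn18, a tight-junction claudin of lung and stomach epithelium, was at 1.07, 1.30 and 1.64 CPM in the control libraries and at 0.049, 0.268 and 0.0543 CPM in the repressor libraries (log2 difference -3.27, SE 0.44, adjusted p = 1.34e-07). The epithelial markers Epcam, Cdh1, Krt8 and Krt18 were at 0 or below 0.5 CPM in both lines.

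Lama2, the alpha-2 chain of laminin in basement membranes, was at 1.63, 1.61 and 1.64 CPM in the control line and at 0.539, 0.582 and 0.489 CPM in the repressor line (log2 difference -1.58, SE 0.28, adjusted p = 0.000134). Dnm3, a dynamin of membrane fission best known from brain, was 3.04-fold lower. Aff2, a nuclear protein of the AF4 family on the X chromosome, was at 10.7, 11.94 and 10.95 CPM against 7.05, 7.20 and 7.39 CPM. Those groups also did not overlap (log2 difference -0.64, SE 0.10, adjusted p = 1.6e-05). Rcan2, a calcineurin regulator, and Cubn, the endocytic receptor cubilin, were 1.57-fold and 1.48-fold lower and were called in every alternative. Npas3, Gpc4, Il1rl2, Sp3os and Tmem171 were also among the 12 largest lower, with log2 differences from -0.71 to -0.53. They lost their call in 4 to 8 of the alternatives. Sp3os is an antisense gene, and since no source used here gives the strand setting of the counting, its reads and those of its partner cannot be told apart.

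**Figure D2:**
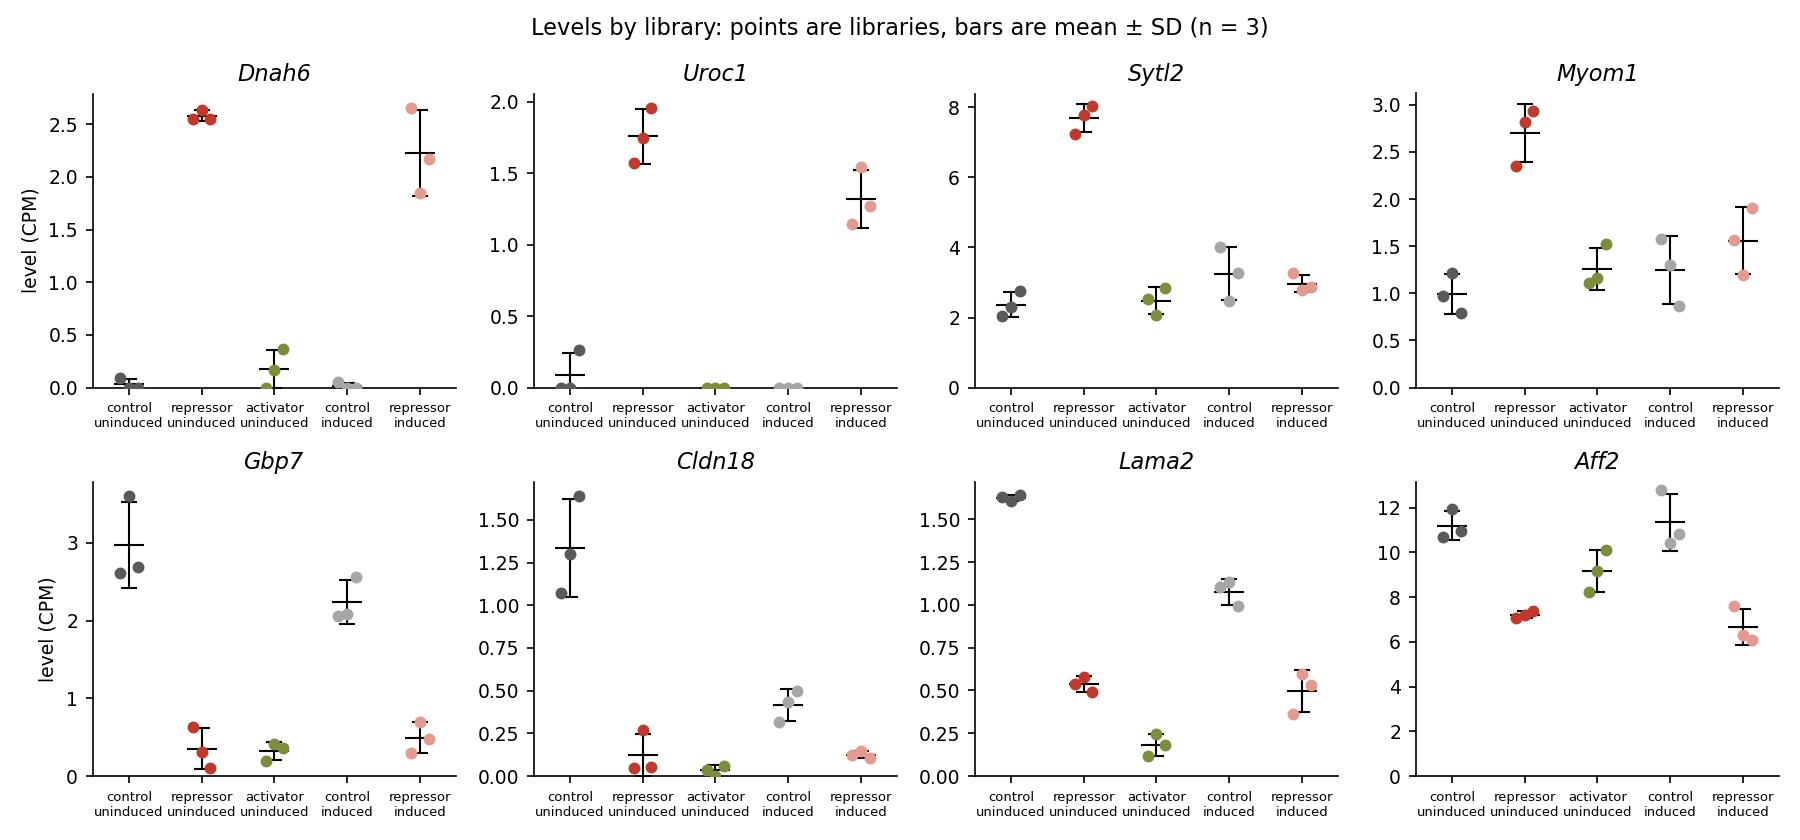
Levels in CPM of 8 genes, 4 higher and 4 lower in the uninduced repressor line, are shown by group. Points are libraries and bars are mean ± SD (n = 3). Dnah6 and Uroc1 stay above 1 CPM in the repressor libraries of both states and near 0 elsewhere, and Sytl2 is above 7 CPM only in the uninduced repressor libraries.

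Abundant genes gave small differences with narrow errors. Hmga2, an architectural chromatin protein of embryonic and transformed cells (chromosome 10, 120361275 to 120476469), was at 361.2, 368.3 and 361.3 CPM in the control line and at 309, 304 and 302.8 CPM in the repressor line. Every control library was above every repressor library (log2 difference -0.25, SE 0.03, adjusted p = 1e-09). The miRNA gene Mir763 lies inside Hmga2 on the same strand and was also called, so their counts are not independent. Spp1, which encodes the secreted matrix protein osteopontin, was at 64.4, 60.2 and 65.6 CPM against 50.9, 47.4 and 49.9 CPM (log2 difference -0.36, SE 0.04, adjusted p = 1.98e-09). Pcdh9, a non-clustered protocadherin of cell adhesion, was at 48.9, 50.9 and 50.6 CPM against 38.6, 36.4 and 38.0 CPM (log2 difference -0.41, SE 0.05, adjusted p = 1.37e-09). In both genes the 3 control libraries were above the 3 repressor libraries. Peg3, a paternally expressed imprinted zinc finger gene, was at 204.5 ± 4.63 CPM in the control line and 179.1 ± 6.42 CPM in the repressor line. It was the only 1 of 40 tested imprinted genes to pass (2.5%, against 1.56% of all tested genes).

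In the other direction, Ank2, an ankyrin that ties membrane proteins to the spectrin skeleton, was at 22.2, 23.0 and 22.4 CPM in the repressor line and at 14.7, 16.3 and 14.8 CPM in the control line (log2 difference 0.56, SE 0.07, adjusted p = 4.86e-09). Sfrp1, a secreted inhibitor of Wnt signalling, was at 18.8, 18.4 and 19.98 CPM against 13.9, 12.4 and 13.6 CPM (log2 difference 0.52, SE 0.08, adjusted p = 3.36e-06). Neither gene's groups overlapped. Sfrp1 was the only 1 of 29 tested Wnt pathway genes to pass (3.45%, against 1.56% of all tested genes). The median log2 difference of that list was 0.0. Hmga2, Spp1, Pcdh9, Peg3, Ank2 and Sfrp1 were called in every alternative.

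Among the lists with at least 15 tested members, targets of ATF4 had the largest share of called genes. The lists were chosen with earlier results of these data known, so this rank is a description and no separate support. Of 40 genes on the list, 35 were tested, 15 were higher in the repressor line, against 0.863% of all tested genes, and 0 were lower. The median log2 difference of the 35 was 0.112, and 33 were above 0. In 25 of the 35 every repressor library was above every control library, against 9.07% of all tested genes. ATF4 binds DNA with C/EBP partners at words of the form TGATGCAA, and a looser form, TGATGNAA, was searched on both strands of RefSeq promoter windows (GRCm38.p6, 250 bases before to 50 after a start). A window was found for 27 of the 35 genes, and 11 of them (40.7%) held TGATGNAA, against 2.76% of 10288 tested genes with a window and 3.97% of all 32851 windows in the table. Among the 12 higher genes with a window 6 held it, and among the 15 that did not pass 5 held it. The stricter TGATGCAA was in 2 of those 12 (16.7%) and 5 of those 15 (33.3%), against 0.68% of the tested genes with a window. The list consists of known targets of this factor, so these shares describe the list and not the line difference. The promoters of the 4 higher genes whose word lies upstream of the start and whose table entry is a lone window are printed to show where it sits, as the 250 bases before the start, with the word (or its reverse complement) in capitals.
Asns (chr6:7693210-7693459, minus strand): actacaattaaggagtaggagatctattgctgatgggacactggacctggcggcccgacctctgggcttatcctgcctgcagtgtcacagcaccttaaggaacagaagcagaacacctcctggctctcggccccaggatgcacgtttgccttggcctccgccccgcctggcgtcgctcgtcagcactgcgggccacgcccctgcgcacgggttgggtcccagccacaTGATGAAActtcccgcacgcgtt
Chac1 (chr2:119350992-119351241, plus strand): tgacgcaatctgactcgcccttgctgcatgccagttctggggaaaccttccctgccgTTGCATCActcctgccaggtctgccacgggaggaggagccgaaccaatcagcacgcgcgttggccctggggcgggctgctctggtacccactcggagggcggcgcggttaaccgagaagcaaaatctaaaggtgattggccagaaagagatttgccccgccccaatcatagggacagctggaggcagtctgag
Gars (chr6:55037751-55038000, plus strand): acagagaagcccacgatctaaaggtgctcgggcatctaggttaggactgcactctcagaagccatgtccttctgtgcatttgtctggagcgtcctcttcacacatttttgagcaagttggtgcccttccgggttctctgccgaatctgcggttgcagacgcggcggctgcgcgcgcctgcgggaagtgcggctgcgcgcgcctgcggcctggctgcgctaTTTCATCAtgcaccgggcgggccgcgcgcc
Pck2 (chr14:55540016-55540265, plus strand): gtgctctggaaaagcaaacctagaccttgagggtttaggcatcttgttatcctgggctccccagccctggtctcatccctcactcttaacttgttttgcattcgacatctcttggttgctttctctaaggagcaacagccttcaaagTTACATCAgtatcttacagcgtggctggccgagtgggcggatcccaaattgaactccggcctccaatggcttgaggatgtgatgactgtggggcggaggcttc
The word begins 23 bases before the start in Asns, 193 in Chac1, 30 in Gars and 103 in Pck2.

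Trib3, a pseudokinase that feeds back on ATF4, had the smallest p of the list. It was at 56.5, 59.9 and 58.3 CPM in the repressor line and at 44.0, 47.6 and 46.9 CPM in the control line (log2 difference 0.34, SE 0.05, adjusted p = 1.28e-07). Sesn2, a leucine-sensing inhibitor of mTORC1 that is also a p53 target, was at 48.5, 50.4 and 53.3 CPM against 40.6, 42.6 and 40.3 CPM (log2 difference 0.30, SE 0.05, adjusted p = 9.76e-06). Gpt2, a mitochondrial alanine aminotransferase, was at 110.3, 111.7 and 110.1 CPM against 97.4, 93.7 and 94.6 CPM (log2 difference 0.22, SE 0.03, adjusted p = 1.07e-05). In all 3 genes the groups lay apart, and all 3 were called in every alternative. Mthfd2, an enzyme of mitochondrial one-carbon metabolism, was at 158.8, 162.8 and 159.7 CPM against 142.4, 141.5 and 137.3 CPM (log2 difference 0.19, SE 0.03, adjusted p = 1.84e-05).

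The other higher members, picked out after their values were seen, fall into the branches of the response. Atf4 itself had a log2 difference of 0.14 (adjusted p = 0.000875) and its relative Atf5 of 0.19 (adjusted p = 0.000223). For amino acid and one-carbon metabolism, Asns (asparagine synthetase) had 0.14, Cth (cystathionine gamma-lyase) 0.33, Pck2 (mitochondrial PEP carboxykinase) 0.17 and Aldh1l2 (formyltetrahydrofolate dehydrogenase) 0.31. The tRNA synthetases Gars and Sars had 0.13 and 0.15, the amino acid importer Slc7a5 had 0.10, the glutathione-degrading enzyme Chac1 had 0.30, and the lipoprotein receptor Vldlr had 0.31. Members that did not pass included the serine synthesis genes Psat1 (0.00), Phgdh (0.06) and Psph (0.14), the cystine importer Slc7a11 (-0.14), and the stress factors Atf3 and Ddit3, at 5.41 and 17.5 CPM in the repressor line (0.13 and 0.11). Medians of the list by library, as log2 against the control mean, were 0.08, 0.143 and 0.14 in the repressor libraries, -0.003, 0.013 and -0.01 in the control libraries and -0.037, -0.035 and -0.052 in the uninduced activator libraries. Repressor libraries were thus higher than the other 6 uninduced libraries in this median. Leaving out a library gave 11 to 16 higher members, while scaling to mitochondrially encoded genes gave 6. Of 30 tested genes of the unfolded protein response and heat shock, Herpud1 was the only one called (3.33%, against 1.56% of all tested genes). Herpud1 had a log2 difference of 0.16 and lost its call when any of the 6 libraries was left out.

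**Figure D3:**
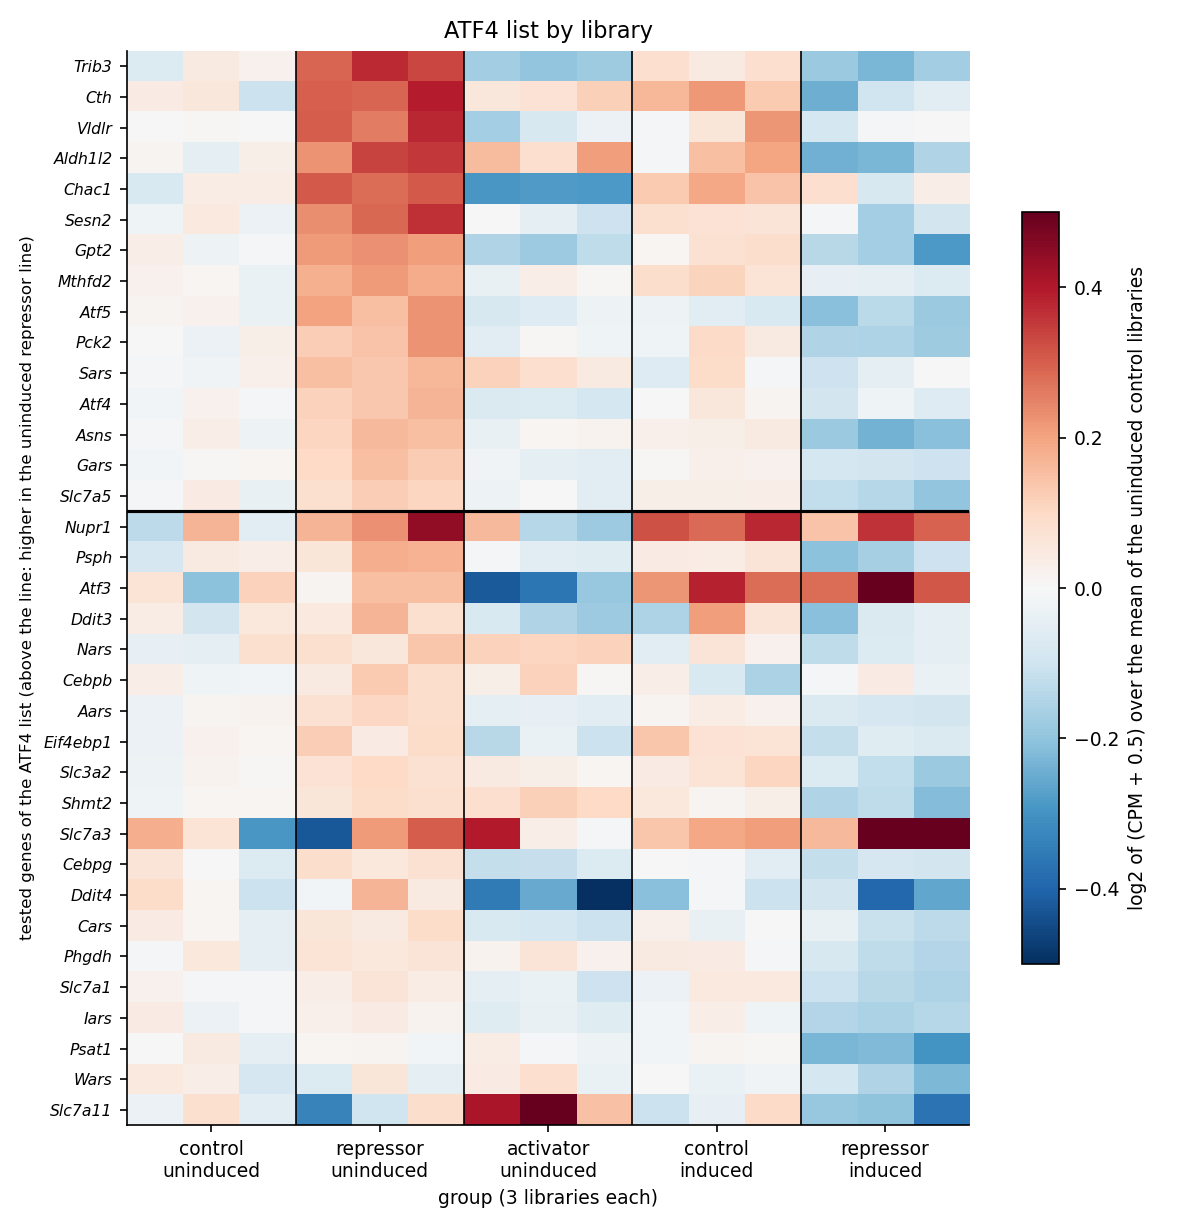
Rows are the 35 tested genes of the ATF4 list and columns are libraries, 3 per group. Colour is the log2 of (CPM + 0.5) over the mean of the uninduced control libraries, cut at -0.5 and 0.5. The 15 genes above the line are red in the 3 uninduced repressor libraries and mostly blue in the 3 induced repressor libraries.

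Fibroblast matrix genes moved in both directions. Of 60 tested, 8 were higher in the repressor line and 3 lower (18.3% called, against 1.56% of all tested genes). The median log2 difference of the 60 was 0.029. Type I collagen, the main fibrillar collagen of connective tissue, was higher in both chains: Col1a2 was at 4242, 4346 and 4356 CPM against 3948, 3885 and 3979 CPM (log2 difference 0.13, SE 0.02, adjusted p = 0.000374), and Col1a1 at 8688 ± 58.2 CPM against 8122 ± 88.0 CPM (log2 difference 0.10, adjusted p = 0.0124). Neither gene's groups overlapped, though the differences were under 1.2-fold. Col1a1 lost its call without control library 1, control library 2, repressor library 2 or repressor library 3. Both chains lost theirs under scaling to mitochondrially encoded genes. The small proteoglycan Fmod, which binds collagen fibrils, was at 21.3, 21.5 and 23.6 CPM against 19.6, 16.3 and 17.1 CPM (log2 difference 0.32, SE 0.07, adjusted p = 0.00391). The call of Fmod was lost without control library 2 or repressor library 3. The remaining higher members were Col14a1, Col6a1, Col6a3, Ogn and Emilin1, and the lower ones were Lama2, Ltbp1, which holds latent TGF-beta in the matrix, and Tnc, which encodes tenascin C. The count of higher members was 5 without control library 1, 2 without control library 2, 3 without repressor library 2 and 3 without repressor library 3. That of lower members was 1 without control library 2, control library 3, repressor library 2 or repressor library 3. Scaling to mitochondrially encoded genes left 3 higher and 1 lower.

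Among 8 tested fibroblast markers, Col1a1, Col1a2, Pdgfra and Pdgfrb passed the test, all higher, while Vim, Fn1, Dcn and Col3a1 did not. The 4 calls became 2 without control library 1, control library 2 or repressor library 3, and 1 under scaling to mitochondrially encoded genes. The summed level of the 10 markers was 20700 to 21200 CPM in the control line and 21600 to 22100 CPM in the repressor line. Whether the share of cells with these markers had a part in the matrix differences was not tested. Among matrix proteases, the procollagen peptidase Adamts2 was higher (log2 difference 0.17) and the membrane-bound metalloproteinase Mmp16 lower (-0.23). Both lost their call without control library 2 or any 1 of the repressor libraries.

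Growth-factor signalling genes differed in a few members. The platelet-derived growth factor receptors Pdgfra and Pdgfrb were higher, at 84.98 ± 3.96 against 72.9 ± 2.15 CPM and 163.1 ± 4.35 against 143 ± 1.87 CPM, and their ligand Pdgfb was lower, at 35.4 ± 2.28 against 41.6 ± 1.71 CPM. Vegfa, the angiogenic factor, had a log2 difference of 0.14 (adjusted p = 0.036). These were 3 higher and 1 lower of 47 tested growth factors and receptors (8.51% called, against 1.56% of all tested genes). The list median was 0.008. The 3 higher calls became 1 without control library 1, control library 2 or repressor library 3, and the lower call was lost without control library 2, control library 3, repressor library 1 or repressor library 3.

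Among immediate early genes and their feedback genes, which follow ERK signalling, called members went both ways. Egr1, a zinc finger factor induced within minutes of a growth signal, was at 95.6, 97.7 and 104.0 CPM in the repressor line and at 82.3, 80.0 and 81.0 CPM in the control line (log2 difference 0.29, SE 0.04, adjusted p = 1.18e-08). The ERK phosphatases were lower: Dusp4 was at 106.2, 104.8 and 100.4 CPM against 117.7, 124.0 and 117.9 CPM (log2 difference -0.21, SE 0.03, adjusted p = 3.22e-05), and Dusp6 at 66.8 ± 2.42 CPM against 76.8 ± 1.89 CPM (log2 difference -0.20, SE 0.04, adjusted p = 0.00068). Repressor and control libraries did not overlap in any of the 3 genes, and all 3 were called in every alternative. They were the only ones of 32 tested members to pass (9.38%, against 1.56% of all tested genes). The list median was -0.059 and 13 members were above 0. In 12 members every repressor library was below every control library, and in 5 every repressor library was above. Over all tested genes, 18.4% did not overlap in either direction. Fos, at 2.03 CPM in the control line and 2.55 CPM in the repressor line, did not pass (adjusted p = 0.558).

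Cell-surface guidance and adhesion genes also went both ways. Efnb2, the membrane ligand ephrin-B2, was at 160.7, 159.5 and 150.6 CPM in the repressor line and at 179.8, 190.7 and 178.6 CPM in the control line (log2 difference -0.22, SE 0.03, adjusted p = 2.62e-06). It overlaps 2 other called genes on the same strand, E230020D15Rik and Gm45073, which may share its reads. Its receptor family member Epha4 was at 39.3 ± 1.02 CPM against 46.2 ± 0.963 CPM (log2 difference -0.23), and both were called in every alternative. The semaphorin receptor Plxnd1 was at 105 ± 1.26 CPM against 91.8 ± 1.44 CPM (log2 difference 0.19, adjusted p = 6.1e-05). Slit3, a secreted repellent, had a log2 difference of 0.12 at the edge of the threshold (adjusted p = 0.0494) and lost its call in 10 of 17 alternatives. These were the 4 called of 43 tested guidance genes (9.3%, against 1.56% of all tested genes), 2 in each direction.

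Of 22 tested adhesion receptors and cadherins, Itga6, the laminin-binding integrin alpha 6, was at 28.4 ± 1.99 CPM in the repressor line and 35.6 ± 0.422 CPM in the control line (log2 difference -0.32, SE 0.05, adjusted p = 2.52e-05). Cd44, the hyaluronan receptor, had a log2 difference of -0.12 and lost its call without control library 1, control library 2 or repressor library 3. Vcam1, a ligand for leukocyte integrins, had one of 0.16 (adjusted p = 0.0013). In that list 1 gene was called higher and 2 lower (13.6%, against 1.56% of all tested genes).

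Metabolic and inflammatory lists had few calls. Of 24 tested genes of cholesterol synthesis and uptake, 2 passed, both higher (8.33%, against 0.863% of all tested genes): Hmgcs1, the first committed enzyme of the mevalonate pathway, at 232.2 ± 4.93 against 209.8 ± 4.86 CPM, and Acat2 at 83.6 ± 4.21 against 74.2 ± 1.73 CPM. The list's median log2 difference was 0.099, 23 of 24 were above 0, and in 16 every repressor library was above every control library, against 9.07% of all tested genes. The 2 calls became 8 when the 6 libraries were fitted alone, 1 without control library 1 or control library 2, and 0 without repressor library 3. Chemokines, cytokines and NF-kB targets had 3 of 32 higher (9.38%, against 0.863% of all tested genes), with a list median of 0.085. These were the chemokines Cxcl12 (log2 difference 0.10) and Ccl2 (0.19) and the receptor Il1r1 (0.22). The count of higher members was 1 without control library 1, control library 3 or repressor library 3. It was 0 without control library 2 or repressor library 2. Of 35 tested NRF2 targets and glutathione genes, Gstm1 (0.25) and Mgst1 (0.22), both of glutathione conjugation, were higher (5.71%, against 0.863% of all tested genes). Both lost their call without control library 2, control library 3, repressor library 2 or repressor library 3. The glycine transporter Slc6a9 was higher (log2 difference 0.27, called in every alternative) and the taurine transporter Slc6a6 lower (-0.11). Slc6a6 lost its call without control library 1, control library 2, repressor library 1 or repressor library 3.

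Many lists had no called member. These were 19 tested Hox genes, 53 transcription factors of limb and mesenchyme, 46 heterochromatin and silencing factors, 44 genes of G1/S and replication, 81 cytosolic ribosomal proteins and 15 mitochondrially encoded protein and rRNA genes. Their median log2 differences lay between -0.017 and 0.035. With 1.56% of all tested genes called, no call in lists of these sizes is near that share. Outside that mitochondrial list, the mitochondrial tRNA gene mt-Tp, singled out after its values were seen, was at 5.98, 7.11 and 6.41 CPM in the repressor line and 8.79, 9.30 and 9.12 CPM in the control line (log2 difference -0.48, SE 0.10, adjusted p = 0.00275). The groups did not overlap, and it was called in every alternative. The heterochromatin list, which covers proteins that bind or modify silent chromatin, had a median of 0.001, with 24 of 46 members above 0. In 7 of its members every repressor library was below every control library, and in 1 every repressor library was above. Over all tested genes, 18.4% did not overlap in either direction. When the 6 libraries were fitted alone, 1 member was called lower. Among 38 tested G2/M genes, the cytokinesis scaffold Anln alone was called, as lower (log2 difference -0.10, adjusted p = 0.0341). That was 2.63% of the list, against 1.56% of all tested genes. The call of Anln was lost when any of the 6 libraries was left out. In the list 4 members were above 0, with a median of -0.035. In 11 of the G2/M genes every repressor library was below every control library, and in 0 every repressor library was above. The G1 kinase Cdk6 was lower at 481.9 ± 6.44 against 526.7 ± 10.7 CPM (log2 difference -0.13), and its inhibitor Cdkn2c was higher (0.17), with the call lost without control library 1, control library 2, repressor library 1 or repressor library 2. The Hippo pathway kinase Lats2 was lower (-0.12) and lost its call without control library 1, control library 2, repressor library 2 or repressor library 3. Of 62 tested replication-dependent histones, Hist1h1a was higher (0.20), which was 1.61% called, against 1.56% of all tested genes. In this list 57 members were above 0, with a median of 0.093. The histone count was 16 when the 6 libraries were fitted alone, 2 without control library 3, and 0 without control library 1, control library 2 or repressor library 1.

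**Figure D4:**
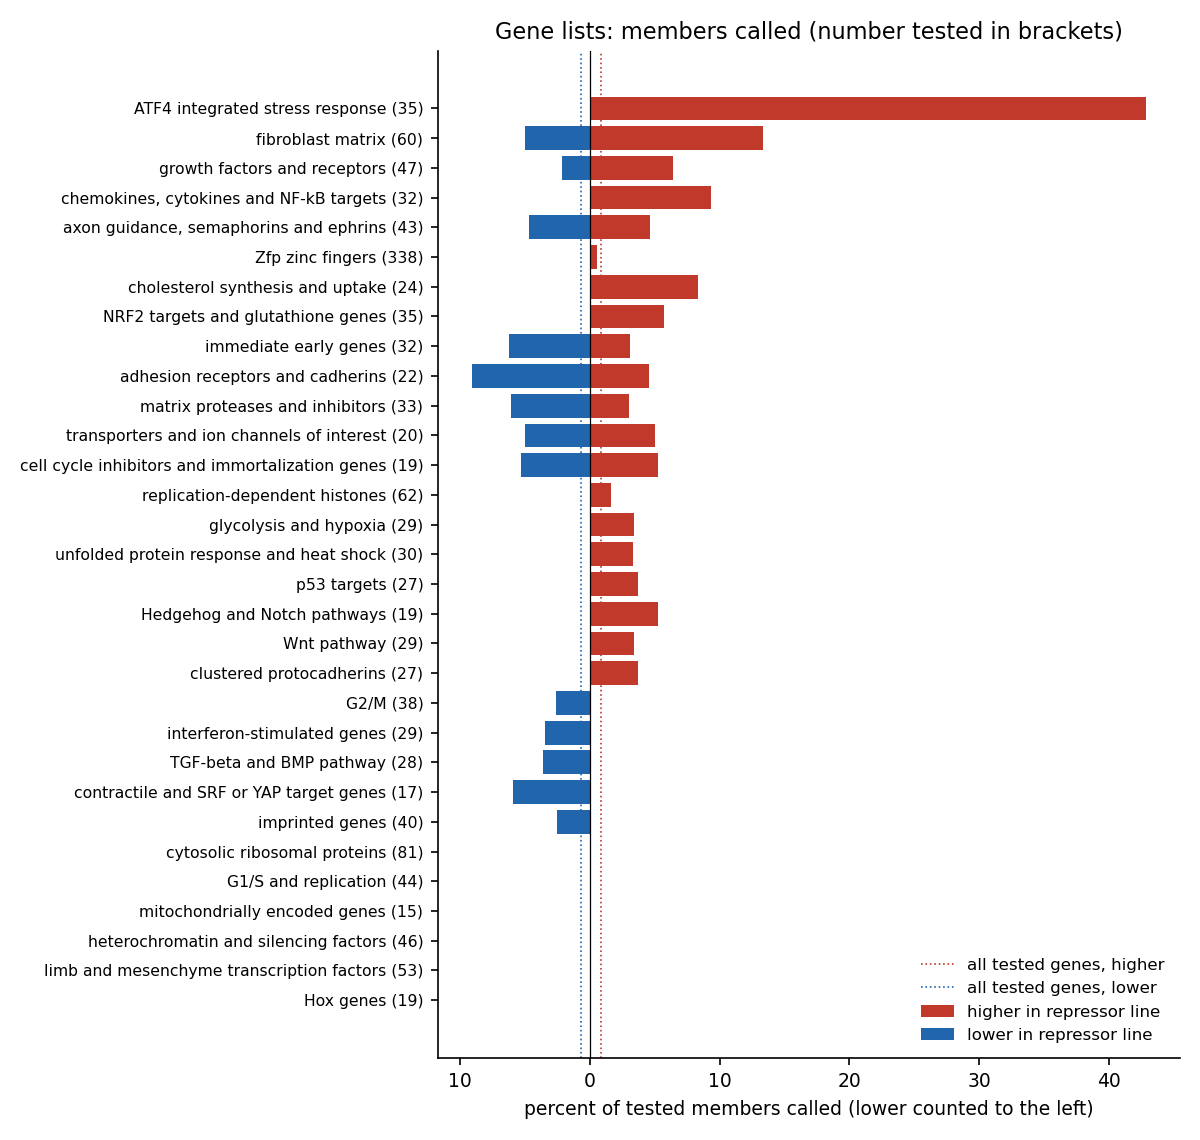
Bars give the percent of tested members called higher (red, to the right) and lower (blue, to the left) for each list with at least 15 tested members, with the number tested in brackets. Dotted lines mark all tested genes, 0.863% higher and 0.697% lower. The ATF4 list reaches 42.9%, and 6 lists have no bar.

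The targeted repeat was followed through 13 gene models whose transcripts were at least 50% covered by 15-base words shared by the satellite-bearing models Gm10800 and Gm26870, summed because reads cannot be placed among near-identical copies. The sum was 6.42, 5.5 and 5.92 CPM in the repressor line and 7.35, 7.86 and 5.84 CPM in the control line, and the groups overlapped. The log2 difference was -0.27 (SE 0.33, 95% interval -0.996 to 0.458, edgeR adjusted p = 0.837). The exact two-sided permutation test gave p = 0.3, where 3 libraries against 3 cannot go below 0.1. At 89 to 181 counts per library, the interval was wider than the differences of the called ATF4 targets, and a difference of that size was not detectable.

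Called genes were spread over the autosomes, and the Y chromosome had the lowest median, over 10 tested genes only. Among autosomes the share of tested genes called ran from 0.211% on chromosome 16 to 2.36% on chromosome 8. Chromosome 6, which holds Dnah6 and Uroc1, had 16 higher and 5 lower (2.35% of 893 tested, against 1.56% of all tested genes). Both lines expressed Y-linked genes and had little Xist (at most 0.605 CPM). Of the 4 Y-linked genes followed, Ddx3y (71.8 to 77.1 CPM in the control line, 66.5 to 67.7 CPM in the repressor line) and Kdm5d (49.9 to 51.8 CPM and 42.6 to 47.1 CPM) were lower in the repressor line. Uty and Eif2s3y, at log2 differences of -0.06 and -0.14, did not pass. Of all 10 tested genes on the Y chromosome 2 were called, both lower, and the median log2 difference of the 10 was -0.145. Medians of the autosomes ran from -0.019 on chromosome 2 to 0.027 on chromosome 6, and that of the X chromosome was 0.023. The autosomes had 396 to 1311 tested genes each, and medians of few genes scatter more. Those of runs of 25 neighbouring tested genes went from -0.124 to 0.353. Whether the Y chromosome differed as a whole was not tested. Ddx3y lost its call without control library 1, control library 3 or any 1 of the repressor libraries, and Kdm5d without control library 1, repressor library 2 or repressor library 3.

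Clustered protocadherins, neuronal adhesion molecules of which each cell reads a few from a shared array, filled the run of 25 neighbouring tested genes with the highest median. That run on chromosome 18 (37447656 to 37841873) held 22 Pcdh genes and had a median log2 difference of 0.353. Of 27 tested clustered protocadherins 24 were above 0, with a median of 0.269, which was 0.174 without repressor library 2. Pcdhga6 alone passed (3.7% of those tested, against 1.56% of all tested genes). It was at 1.23, 1.34 and 1.41 CPM in the repressor line and 0.512, 0.738 and 0.722 CPM in the control line (adjusted p = 0.0494). Its call was lost when any of the 6 libraries was left out, and overlapping protocadherin transcripts share exons, so their counts are uncertain. The run with the lowest median (-0.124, chromosome 2, 60292103 to 69114282) held 2 lower genes, the actin regulator Cobll1 (log2 difference -0.19) and the kinase Stk39 (-0.16). The call of Stk39 was lost when any of the 6 libraries was left out.

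The induced libraries of the same lines share no library with the uninduced ones and give the line difference again, though with induction added. The repressor line then had 100 ng/ml doxycycline and the control line 10 ng/ml, both for 24 h, so the line, its effector and the dose cannot be told apart there. The lines differed in 1774 genes after induction (10.9% of those tested), 822 higher (5.07%) and 952 lower (5.87%) in the repressor line. Of the 253 genes that differed before, 107 differed the same way, which was 42.3% of the uninduced list and 6.03% of the induced list. Another 32 differed the opposite way and 114 did not pass. Of the 113 lower genes, 70 were called lower again and 3 higher, and their median log2 difference went from -0.184 to -0.169. Of the 140 higher genes, 37 were called higher again and 29 lower, and their median went from 0.22 to 0.061. Whether the higher and lower genes differed in this was not tested. A test of the change in line difference itself, which uses both sets of libraries, was passed by 71 of the 253, against 2.73% of all tested genes. Those 71 were not chosen independently, since the uninduced libraries enter both tests.

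Several of the low-level genes differed in both states. Dnah6 was at 2.66, 1.84 and 2.17 CPM in the induced repressor libraries and 0.0527, 0 and 0 CPM in the induced control libraries. Uroc1 was at 1.15, 1.54 and 1.27 CPM and had no count in the induced control or uninduced activator libraries. In Gbp7 and Lama2 the induced groups again lay apart, with log2 differences of -2.14 (adjusted p = 1.73e-08) and -1.08 (adjusted p = 0.0137). Gbp7, Lama2, Cldn18 and Dnm3 were also low in the uninduced activator libraries, at 0.323 ± 0.117, 0.182 ± 0.0666, 0.033 ± 0.0307 and 0.526 ± 0.0628 CPM. Pcdh9 and Epha4 were near the repressor line there, at 36.8 and 40.2 CPM. In these genes the control line was the one that stood apart. Others went the other way: Hmga2, Spp1 and Cubn were above the control line there, at 575.5, 180.8 and 15.2 CPM. The activator levels were compared with no test. Hmga2 (-0.46), Pcdh9 (-0.70), Spp1 (-0.48), Aff2 (-0.76) and Itga6 (-0.45) were lower after induction as well, each at an adjusted p of 2.74e-08 or less.

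Sytl2 and the ATF4 targets did not hold. Sytl2 was at 3.26, 2.79 and 2.86 CPM in the induced repressor libraries and 4.003, 2.48 and 3.26 CPM in the induced control libraries, which overlapped (log2 difference -0.12, adjusted p = 0.745). None of the 35 ATF4 genes was higher in the induced repressor line, 22 were lower, and the list median was -0.15. Trib3 was at 40.5, 39.3 and 40.9 CPM against 48.9, 47.7 and 49.0 CPM, so that the repressor libraries were the lower ones (log2 difference -0.27, adjusted p = 1.53e-05). The list median against the uninduced control mean was -0.106, -0.121 and -0.105 in the induced repressor libraries and 0.012, 0.051 and 0.046 in the induced control libraries. Of the 60 matrix genes, 7 were higher and 25 lower after induction, with Lama2 lower in both states, and Col1a2 was at 3373, 3342 and 3344 CPM against 3815, 4006 and 3952 CPM. Egr1 kept its direction with a larger difference, at 111.6, 113.9 and 111.5 CPM against 76.3, 74.3 and 72.8 CPM (log2 difference 0.60, SE 0.04, adjusted p = 1.76e-24).

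**Figure D5:**
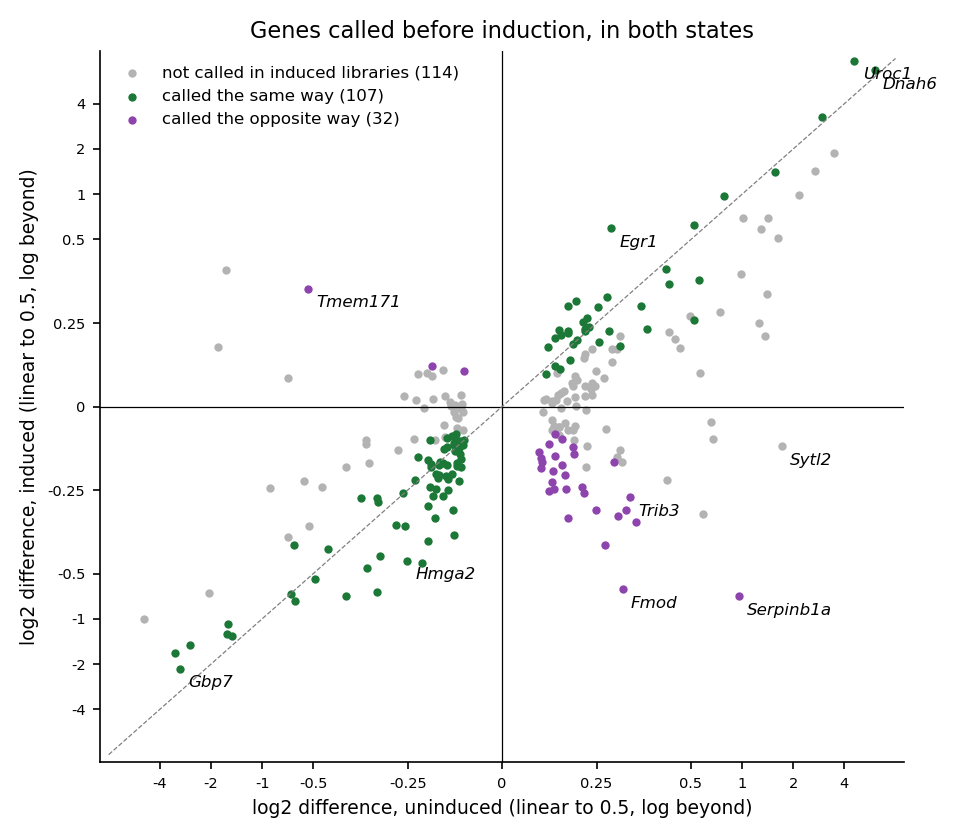
Each point is 1 of the 253 genes called before induction, with the log2 line difference in uninduced libraries across and in induced libraries upwards (axes linear to 0.5 and log beyond, dashed line at equal values). Green genes (107) were called the same way after induction, purple (32) the opposite way and grey (114) not. The purple points lie mostly at the lower right, higher before induction and lower after it.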

How the data were processed

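RNA was measured by stranded, rRNA-depleted, paired-end total RNA sequencing, per the labels' protocols. The authors deposited 1 table of whole-number read counts per gene for 18 libraries, on build mm10 per the submitters' processing notes. For the aligner, the counter and the strand setting, nothing is given in the sources used here. Of 47937 IDs, 47310 matched GENCODE M21 without the version number, and the 627 others held 0.042% of the counts.

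Counts were filtered with filterByExpr, TMM-scaled and fitted with edgeR 4.0.16 (R 4.3.3) by the robust quasi-likelihood test over all 18 libraries, with 1 coefficient per group, so that all groups shared the estimate of spread. P-values were adjusted by Benjamini-Hochberg over 16216 genes, and 0.05 was the threshold. A standard error is the size of the log2 difference over the root of the F statistic. On simulated counts for 16006 genes, 73 of 100 genes seeded at 1.2-fold and 98 of 100 at 1.5-fold were recovered, and 7 unchanged genes were called. Seeded genes were all above a minimum level in the control line, so the recovered shares do not cover low-level genes such as Dnah6 and Gbp7. The simulated spread depended on the level of a gene alone, so these figures may be optimistic.

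The comparison, its members and the 41 gene lists were chosen with earlier results of these data known. Genes were named by a rule: the 12 largest called differences in each direction at 1 CPM or more in the higher group, the 8 smallest p-values in each direction, up to 4 called genes per list and direction and in the extreme runs of 25 neighbouring genes, and cell type markers. Genes with Gm or Rik symbols were counted and not named, except where they overlap a named gene or define the satellite models. Alternatives were other scalings, filters and sets of libraries, the replicate number as a block, each library left out, limma-voom (limma 3.58.1) and DESeq2 1.42.0. Low counts were compared by exact intervals, which cover counting error only. A result for 1 gene is not reported here.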

Additional observations from a re-analysis of the deposited data

Results flagged for a closer look

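Of the 78 genes named by the rule, 25 had a line difference that differed between induced and uninduced libraries, against 2.73% of all tested genes. This was by the edgeR test of that change (Benjamini-Hochberg over all tested genes). The 25 were not chosen independently, since the uninduced libraries that picked the named genes also enter this test. The values below are the induced minus the uninduced log2 difference, and the doses of the lines differed in the induced libraries. In the ATF4 list the change was -0.61 for Trib3, -0.48 for Gpt2, -0.46 for Sesn2 and -0.33 for Mthfd2, and it was -0.33 for the endoplasmic reticulum stress gene Herpud1. Among matrix genes it was -0.96 for Fmod, -0.36 for Col1a2, -0.23 for Col1a1 and -0.22 for Adamts2.

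Among signalling and growth genes the change was 0.31 for Egr1, 0.3 for Dusp6, 0.2 for Dusp4, 0.32 for Pdgfb, -0.23 for Pdgfra and -0.18 for Cdk6. It was 0.21 for Anln, -0.27 for Cxcl12 and -0.38 for Slit3. Of the genes with large or abundant differences it was -1.84 for Sytl2, -1.66 for Serpinb1a, 0.89 for Tmem171, -0.29 for Pcdh9 and -0.21 for Hmga2. The transporter Slc6a9 changed by -0.69 and the glutathione transferase Mgst1 by -0.4.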

How the results depend on the processing

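The number of genes called was 253 (140 higher, 113 lower). It was 164 (79 higher) with total counts, 82 (41 and 41) when scaled to mitochondrially encoded genes and 125 (62 and 63) with DESeq2. It was 513 (269 and 244) in the 6 libraries alone and 515 (259 and 256) in the 9 uninduced libraries. The cause was not tested. With the replicate block in the 9 uninduced libraries it was 567 (286 and 281), against 515 without the block. Deviations of same-numbered libraries correlated weakly (r = -0.0124, 0.0637 and 0.0801 over 10236 genes), and other pairs ran from -0.0894 to 0.0326. All were below a set minimum of 0.1, so the numbers were not taken to pair libraries. Control libraries 2 and 3 correlated best with the same-numbered repressor library, and control library 1 with repressor library 2. These values do not settle whether libraries were paired. Leaving out each library gave 103 to 190 genes, 58 to 110 higher and 45 to 81 lower. Of the 253 genes, 250 were called in the 6 libraries alone, 122 by DESeq2, which gave some low-level genes no adjusted p, and 80 under mitochondrial scaling. None of the 78 genes named by the rule changed direction in these alternatives. The medians of 14 gene lists, each at most 0.031 in size, changed sign in at least 1. Of the 78 named genes, 29 were called in every alternative. Genes below about 1 CPM rest on few counts per library.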

Other observations

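Further genes, picked out after their values were seen because they were called in every alternative, were not covered by the naming rule. Etv4, an ETS transcription factor downstream of growth-factor signalling, was at 34.2 ± 1.80 CPM (SD, n = 3) in the repressor line and 41.5 ± 0.976 CPM in the control line. Sulf2, which trims sulfate from heparan sulfate outside the cell, was at 94.2 ± 0.373 CPM against 108.3 ± 4.29 CPM. The adhesion and guidance protein Flrt2 was at 82.3 ± 1.73 CPM against 95.4 ± 0.443 CPM. Msln, a surface protein of mesothelial cells, was at 38.5 ± 2.08 CPM against 46.8 ± 2.08 CPM. In these 4 genes the groups did not overlap, and Sulf2, Flrt2 and Msln were also lower in the induced repressor line.

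Tgm2, the crosslinking enzyme transglutaminase 2, was higher in the repressor line, at 79.1 ± 3.39 CPM against 67.2 ± 3.03 CPM. Lama1, the alpha-1 laminin chain, had 35 counts over the repressor libraries and 5 over the control libraries, a ratio of 6.83 (95% counting interval 2.66 to 22.3). It thus differed in the opposite direction to Lama2. Ano3, a membrane protein of the anoctamin family, had 42 counts against 5 (8.2, 3.25 to 26.5).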
